A study of Mus musculus with 3 samples.

Results

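Figla, Nobox, Lhx8, Sohlh1 and Sohlh2 are 5 transcription factor genes of the oocyte programme, taken by symbol from a table of 14133 genes and followed across and within 3 stages of fetal germ cell development. All 5 were in the table. The study sorted germ cells carrying an Oct4-EGFP reporter from ovaries of C57BL/6 mouse fetuses at embryonic days 12.5, 14.5 and 16.5 and sequenced RNA of single cells with a 10x Genomics kit for 3' ends. Each stage is 1 library, so a stage cannot be told apart from its library, no p-value between stages can be given, and intervals cover counting error only. No treatment or mutant was compared, and the number of fetuses behind a library is not given in the sources used here. A limit is the sort itself: it selected on a reporter of Pou5f1 (Oct4), a gene that germ cells switch off as they enter meiosis.

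Oocytes depend on a small network of germ-line transcription factors to survive and to assemble into follicles. Sohlh1 and Sohlh2 encode basic helix-loop-helix proteins of the germ line that can pair with each other. Lhx8 encodes a LIM homeodomain protein and Nobox a homeodomain protein, and loss of either empties the mouse ovary of oocytes early in life. Figla encodes a basic helix-loop-helix protein that pairs with E proteins such as the product of Tcf3 and turns on zona pellucida genes, and without it primordial follicles do not form. Germ cells of the fetal ovary meanwhile leave the pluripotent-like state, respond to retinoic acid through Stra8 and enter meiotic prophase.

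Basic helix-loop-helix proteins bind E-boxes, so the bases before the RefSeq start of each gene are shown here for the E-boxes they hold. The sequences are from RefSeq (GRCm38.p6), which matched 5 of 5 genes, and run 5' to 3' on the gene's strand up to the RefSeq start of transcription, or to the first GENCODE exon in the window where that came earlier. This left 151 bases for Lhx8 and 234 for Sohlh2, against 250 for the other genes. The Figla window ends at the start of its coding transcript and lies in the first intron of a longer GENCODE transcript without coding sequence. Capitals mark every E-box, CANNTG, which reads the same on both strands.
Figla (chr6:86016941-86017190, plus strand): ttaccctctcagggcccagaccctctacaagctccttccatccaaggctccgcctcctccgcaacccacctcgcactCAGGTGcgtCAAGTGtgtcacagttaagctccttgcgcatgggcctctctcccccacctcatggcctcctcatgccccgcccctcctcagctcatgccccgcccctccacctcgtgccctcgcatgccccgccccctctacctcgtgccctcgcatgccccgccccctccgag
Nobox (chr6:43309555-43309804, minus strand): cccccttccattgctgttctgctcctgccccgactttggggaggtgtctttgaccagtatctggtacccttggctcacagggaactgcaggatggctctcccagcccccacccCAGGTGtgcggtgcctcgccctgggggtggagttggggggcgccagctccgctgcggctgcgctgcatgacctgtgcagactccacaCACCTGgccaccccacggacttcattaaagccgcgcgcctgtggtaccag
Lhx8 (chr3:154330660-154330810, minus strand): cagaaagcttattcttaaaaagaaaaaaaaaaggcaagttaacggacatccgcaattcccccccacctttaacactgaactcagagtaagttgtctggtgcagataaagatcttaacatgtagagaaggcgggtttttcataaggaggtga
Sohlh1 (chr2:25847249-25847498, minus strand): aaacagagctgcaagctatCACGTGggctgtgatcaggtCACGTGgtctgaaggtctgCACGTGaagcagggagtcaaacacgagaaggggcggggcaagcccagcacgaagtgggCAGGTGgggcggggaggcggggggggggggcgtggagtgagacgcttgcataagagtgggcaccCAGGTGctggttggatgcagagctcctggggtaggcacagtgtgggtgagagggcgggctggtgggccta
Sohlh2 (chr3:55181794-55182027, plus strand): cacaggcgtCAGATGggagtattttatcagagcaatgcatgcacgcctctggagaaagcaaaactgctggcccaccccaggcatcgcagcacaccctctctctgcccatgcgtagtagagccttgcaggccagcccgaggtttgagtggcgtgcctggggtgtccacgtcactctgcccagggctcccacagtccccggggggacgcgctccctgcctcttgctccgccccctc

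The Sohlh1 window held 5 E-boxes, the most of the 5 genes, and 3 of them read CACGTG. The remaining 2 held the variant CAGGTG. Figla and Nobox had 2 each, Sohlh2 had 1 and the shorter Lhx8 window had 0. Over 32851 RefSeq promoters, 66.2% of windows of 250 bases held at least 1 CANNTG (median 1), 49.5% of windows of 151 bases and 64.0% of windows of 234 bases. Of the windows of 250 bases, 6.02% held CACGTG. The other variant, CAGGTG, was searched on both strands and was in 17.2% of them. Both variants are also counted as E-boxes. The homeodomain-type motif TAATTG, searched on both strands, had 0 matches in the 5 windows. Over all promoters it was in 7.17% of windows of 250 bases, 4.69% of 151 bases and 6.88% of 234 bases. A count of 0 in 5 is thus near the share of all promoters. A match is a string of letters, and binding was not measured here. Per the GENCODE M21 annotation of GRCm38, Figla lies on chromosome 6 at 86016171 to 86020996 (plus strand) and Nobox on chromosome 6 at 43303674 to 43309554 (minus strand). Lhx8 lies on chromosome 3 at 154306294 to 154330659 (minus strand), Sohlh1 on chromosome 2 at 25842995 to 25847248 (minus strand) and Sohlh2 on chromosome 3 at 55182028 to 55209957 (plus strand). No other annotated gene overlaps any of them.

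The libraries held 4706, 9075 and 5363 cells at E12.5, E14.5 and E16.5, with medians of 26691.5, 10960 and 12659 unique molecular identifiers (UMIs, 1 per captured RNA molecule) per cell. Between 101 and 130 cell barcodes of a library also occurred in another. Clustering gave 9 germ-cell-like clusters, with 4684, 8904 and 5311 cells, and 1 pregranulosa-like cluster of 19, 165 and 23 cells. In the pregranulosa-like cluster, 20 of 21 measured pregranulosa markers were found in at least 10% of cells. So were 13 of 14 germ cell markers. In germ-cell-like cells the 14 germ cell markers summed to 3235, 7771 and 10225 CPM (UMIs of a gene scaled to the library's total UMIs), and the 21 measured pregranulosa markers to 79.8, 104 and 50.7 CPM. The label of female cells did not hold for all of E12.5: 667 germ-cell-like cells had a UMI of a Y-linked gene in that library, and 0 cells did in either later library. Without those cells the log2 ratio of Figla between E14.5 and E12.5 was 6.48 in place of 6.60, and that of Sohlh2 0.87 in place of 0.93. Doublet calling marked 0.20% of all cells, far under the 6% expected, so doublets may remain.

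Figla was the member with the largest difference between E12.5 and E14.5. Its level in germ-cell-like cells, as CPM of the UMIs summed over a library, was 1.24 (95% Poisson interval 1.05 to 1.45) at E12.5, 119.85 (118 to 122) at E14.5 and 217.05 (214 to 221) at E16.5. E14.5 was 96.9-fold (82.7 to 114) above E12.5, and 63 of 14133 genes had a larger ratio. E16.5 was a further 1.81-fold (1.77 to 1.85) above E14.5. The median germ-cell-like cell had 0 CPM of Figla at E12.5, 89.3 at E14.5 and 172 at E16.5. The highest number of Figla UMIs in a cell was 2 at E12.5, 13 at E14.5 and 50 at E16.5. Figla was found in 151 of 4684 cells of the first library and 4534 of 5311 of the last.

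Sohlh2 was the member already abundant at E12.5. Its level was 47.2 CPM (46.0 to 48.5) at E12.5, 89.9 (88.1 to 91.8) at E14.5 and 49.2 (47.6 to 50.9) at E16.5. The E14.5 library stood 1.90-fold (1.84 to 1.97) above E12.5 and 1.83-fold (1.76 to 1.90) above E16.5. Between E16.5 and E12.5 the ratio was 1.04 (0.998 to 1.09), and its direction depended on scaling: the log2 ratio was 0.06 in CPM, -0.27 with TMM scaling and -0.32 with median-of-ratios scaling. The median of all genes differed by 0.30 on the log2 scale in CPM for E14.5 over E12.5, 0.06 for E16.5 over E14.5 and 0.39 for E16.5 over E12.5, so values near these are close to the shift of the whole table. Sohlh2 at E14.5 stood above that shift and at E16.5 over E12.5 below it.

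Lhx8, Sohlh1 and Nobox were low in the first 2 libraries and highest at E16.5. Lhx8 was at 0.311 CPM (39 UMIs) at E12.5, 2.60 (267 UMIs) at E14.5 and 17.8 (16.8 to 18.8) at E16.5. Sohlh1 was at 0.192 CPM (24 UMIs), 2.99 (307 UMIs) and 14.4 (13.5 to 15.3) at the same stages. Nobox was at 0.255 CPM (32 UMIs), 0.497 (51 UMIs) and 4.96 (4.45 to 5.51). These are the rarest of the 5 transcripts, and the intervals of each stage's level did not overlap for any of them. For Nobox the intervals of E12.5 (0.175 to 0.360) and E14.5 (0.370 to 0.654) nearly met, and the ratio between these stages was 1.95 (1.23 to 3.13). Between E14.5 and E16.5, Nobox was 9.97-fold (7.41 to 13.7), Lhx8 6.83-fold (5.97 to 7.82) and Sohlh1 4.79-fold (4.21 to 5.47) higher.

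**Figure D1:**
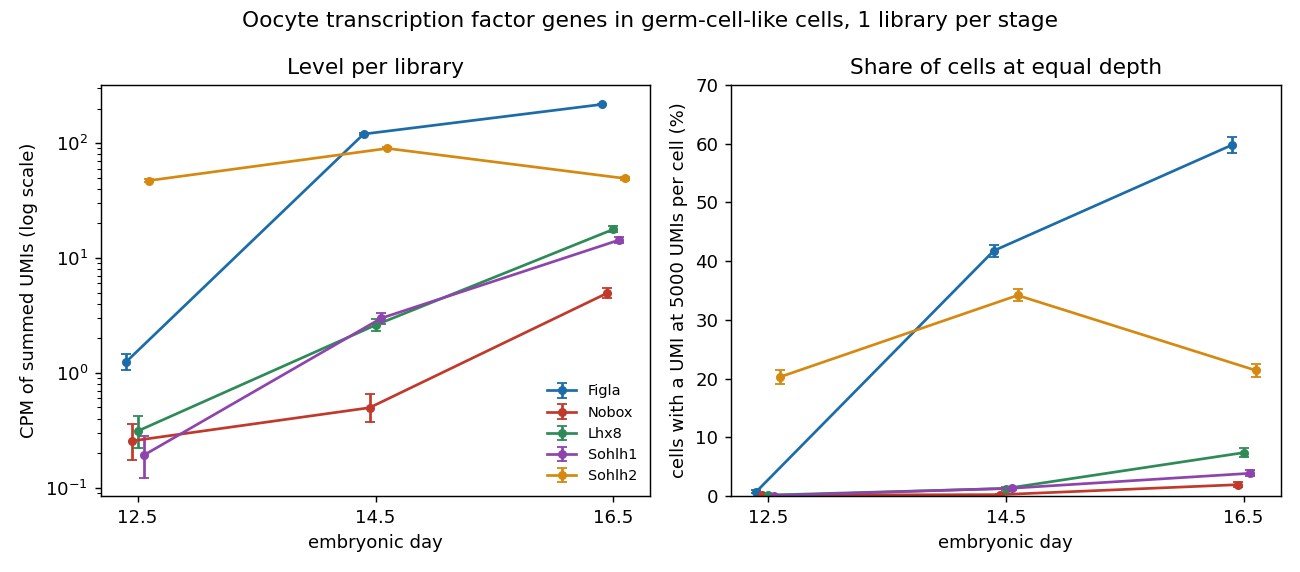
Left, level of each gene in CPM of summed UMIs on a log scale with 95% Poisson intervals, by embryonic day. Right, share of cells with a UMI of the gene after every cell was thinned to 5000 UMIs, with 95% binomial intervals. Each point is 1 library. Figla goes from 1.24 to 217.05 CPM, while Sohlh2 is highest at E14.5 with 89.9 CPM.

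At a threshold of 2-fold, 3 of the 5 genes were higher at E14.5 than at E12.5 (Figla, Lhx8 and Sohlh1), where 31.1% of all genes were, and 0 were lower, against 16.3% of all genes. For E16.5 over E14.5 it was 3 of 5 (Nobox, Lhx8 and Sohlh1), against 16.3% of all genes, with 0 lower against 17.4%. For E16.5 over E12.5 it was 4 of 5, all but Sohlh2, against 36.9% of all genes, with 0 lower against 22.7%. The comparisons share libraries. The call of Sohlh1 at E14.5 rests on a level below that in pregranulosa-like cells, as given with the shares of cells. The order of levels differed by stage. At E12.5 Sohlh2 stood above Figla, and Lhx8, Nobox and Sohlh1 followed with overlapping intervals. At E14.5 the order was Figla, Sohlh2, Sohlh1, Lhx8 and Nobox, and the intervals of Sohlh1 and Lhx8 overlapped. At E16.5 it was Figla, Sohlh2, Lhx8, Sohlh1 and Nobox, with no overlap between neighbours. UMIs mark 3' ends, so these levels between genes are per molecule captured and were not divided by length.

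The share of cells with a UMI was compared after each cell was thinned at random to 5000 UMIs, which left out 0, 11 and 25 cells. Figla was found in 0.70%, 41.8% and 59.8% of thinned cells at E12.5, E14.5 and E16.5 (3.22%, 62.3% and 85.4% unthinned). Sohlh2 was found in 20.3%, 34.2% and 21.4% (63.4%, 59.9% and 44.2% unthinned), so its order by stage appeared only at equal depth. The other genes were found in few cells. Lhx8 was in 0.19%, 1.32% and 7.42% of thinned cells (0.79%, 2.99% and 16.4% unthinned), Sohlh1 in 0.11%, 1.36% and 3.90% (0.51%, 3.16% and 7.31% unthinned) and Nobox in 0.19%, 0.27% and 1.97% (0.68%, 0.55% and 4.41% unthinned).

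Pregranulosa-like cells, which held somatic markers but also germ cell markers, gave the background of these shares. Of the 165 such cells at E14.5 (median 8489 UMIs, against 11002.5 in germ-cell-like cells), 5.45% had a Figla UMI after thinning and 4.85% a Sohlh2 UMI, both well under the germ-cell-like shares. Nobox was in 0 of 165, which allows a share of up to 1.82%, and Lhx8 in 0.61% (interval 0.02% to 3.33%), so the low Nobox and Lhx8 shares of E14.5 germ-cell-like cells are within what that background allows. For Sohlh1 the pregranulosa-like share, 4.85% (2.12% to 9.33%), was above the germ-cell-like share of 1.36%, so these cells gave no lower level to set it against. Between the 3 large germ-cell-like clusters of E14.5 the Sohlh1 share was 1.90% (1.46% to 2.42%), 1.62% (1.21% to 2.11%) and 0.14% (0.03% to 0.42%), a spread beyond counting error. At E16.5, 0 of 23 pregranulosa-like cells had a Nobox, Lhx8 or Sohlh1 UMI after thinning, which allows up to 13.0%. That limit is too wide to set the germ-cell-like shares of 1.97%, 7.42% and 3.90% apart from background by cell type. Those 23 cells also had 9611 CPM of blood and immune markers, against 4162 CPM of pregranulosa markers, so their name is uncertain. Between the large germ-cell-like clusters of E16.5 the share of Sohlh1 also differed beyond counting error. It was found in 6.99% (6.00% to 8.09%) of thinned cells of 1 large cluster and 1.12% (0.72% to 1.64%) of the other. The 5 genes were not kept out of the clustering, so these spreads between clusters are a description only.

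In the pregranulosa-like cells of E14.5, Sohlh1 did not keep the ratio of the germ-line transcripts. In E14.5 pregranulosa-like cells, Figla stood at 0.178 of its germ-cell-like level, Sohlh2 at 0.194 and the summed germ cell marker list at 0.208. Sohlh1 stood at 4.96 times its germ-cell-like level (3.10 to 7.58), with 14.9 CPM against 2.99, from 23 UMIs in 20 of the 165 cells. Single germ cell markers ranged from 0.164 to 1.41 with a median of 0.207, and Nanos3 was the one at 1.41. The 20 cells with a Sohlh1 UMI had 1710 CPM of the germ cell markers and 6628 CPM of the pregranulosa markers, against 1603 and 5415 CPM in the other 145. At E12.5, with 19 pregranulosa-like cells and 2 Sohlh1 UMIs, the Sohlh1 ratio was 44.8 (5.13 to 180) beside 0.064 for the germ cell list. At E16.5, with 23 pregranulosa-like cells and 1 Sohlh1 UMI, its ratio was 0.229 (0.006 to 1.28) beside 0.256 for the germ cell list. This comparison was made after the values were seen.

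Within a library, cells were ordered by the log2 ratio of meiotic prophase transcripts (20 measured genes such as Sycp1 and Dmc1) to early germ cell transcripts (15 genes such as Pou5f1 and Nanos3), and cut into 3 groups of equal size, earliest, middle and latest. None of the 5 genes is in either list. A group is a range along a score, and 886, 534 and 803 cells of the 3 libraries lay within 0.1 of a cut. At E14.5 Figla was at 32.6, 116 and 249 CPM in the earliest, middle and latest group, so the latest cells of this library exceeded the level of the E16.5 library as a whole. Sohlh2 went the other way at E14.5, with 99.0, 98.3 and 66.8 CPM. Sohlh1 was at 3.28, 4.24 and 1.07 CPM, Lhx8 at 2.68, 2.37 and 2.78 CPM, and Nobox at 0.273, 0.409 and 0.927 CPM. The median depth of the groups was 13083, 11123 and 9194.5 UMIs, so Figla was highest in the shallowest cells, and at equal depth its shares were 15.6%, 41.6% and 68.2%.

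At E16.5 the picture along the score was different. Figla differed little, with 211, 210 and 231 CPM, and its shares at equal depth were 56.0%, 58.8% and 64.5%. With cells ordered by the meiotic list alone it was at 189, 212 and 252 CPM. Sohlh1 was highest in the earliest group, with 26.0, 12.3 and 3.85 CPM. Lhx8 had 24.0, 19.0 and 9.77 CPM, Nobox 8.25, 3.82 and 2.60 CPM, and Sohlh2 60.2, 45.3 and 41.3 CPM. The 3 genes that appeared last by stage were thus highest in the group of lowest score. With the meiotic list alone the order was the same, Sohlh1 with 22.4, 15.6 and 4.32 CPM. A low score need not mean a less advanced cell. In 93 cells of this library that clustered with E14.5 cells, Lhx8 was at 5.88, Sohlh1 at 8.02 and Nobox at 1.60 CPM. At E12.5 Figla was at 1.01, 1.19 and 1.52 CPM, with overlapping intervals between neighbouring groups, and Sohlh2 at 40.4, 47.1 and 54.3 CPM without overlap.

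**Figure D2:**
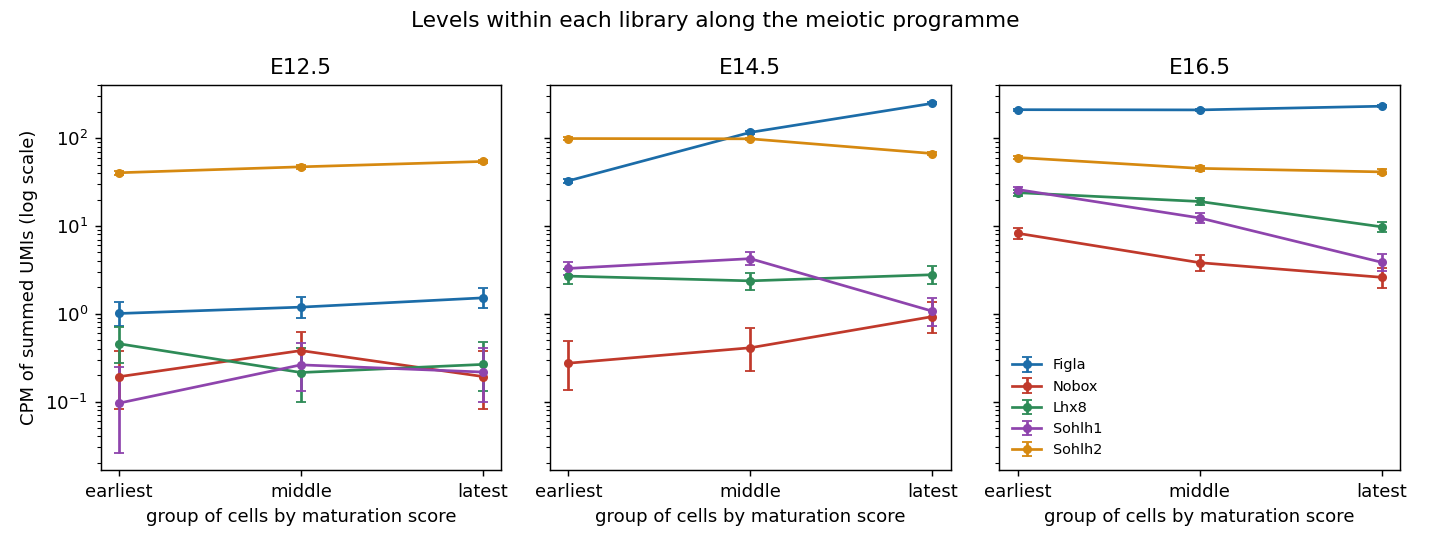
CPM of summed UMIs (log scale, 95% Poisson intervals) in the germ-cell-like cells of each library, cut into 3 groups of equal size by the ratio of meiotic to early transcripts. At E14.5 Figla goes from 32.6 to 249 CPM across the groups, and at E16.5 Sohlh1 goes from 26.0 to 3.85 CPM.

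The clusters, which were built from all genes and so give a description only, showed the same spread. At E14.5, Figla was at 32.2 CPM in the cluster of 3318 cells led by genes such as Cdh15, 135 in the cluster of 3277 cells led by Stra8 and Rec8, and 282 in the cluster of 2079 cells led by Tppp and Fgf11. Sohlh1 was at 3.51, 3.83 and 0.263 CPM in these clusters, and Sohlh2 at 100.03, 94.9 and 56.6 CPM. At E16.5, Sohlh1 was at 28.6 CPM in a cluster of 2404 cells with Myom3 among its leading genes and at 2.26 CPM in the cluster of 2248 cells led by Pcdh17. Lhx8 was at 29.9 and 8.85 CPM in these 2 clusters, Nobox at 8.41 and 2.40 CPM, and Figla at 196 and 256 CPM. Of these 2 clusters, the one with more Figla had less of the other 3 genes, but the smaller clusters did not follow that order. A cluster of 529 cells had 196 CPM of Figla with 5.36 of Lhx8, 1.47 of Nobox and 4.02 of Sohlh1, and 93 cells of another had 62.0 CPM of Figla with 5.88 of Lhx8. At E12.5, Figla was at 0.562 CPM and Sohlh2 at 36.0 CPM in the cluster of 627 cells led by Y-linked genes, against 1.35 and 48.9 CPM in the largest cluster.

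Whether the genes were found in the same cells was described within each library at 5000 UMIs per cell, as the number of cells with both genes over the number that the product of their shares gives. At E16.5, over 5286 cells, the 3 highest of the 10 ratios were those of the 3 pairs among Nobox, Lhx8 and Sohlh1. Nobox and Sohlh1 were together in 33 cells where the product gives 4.05, a ratio of 8.14. Nobox and Lhx8 were together in 31 cells against 7.71, a ratio of 4.02. Lhx8 and Sohlh1 were together in 59 cells against 15.3, a ratio of 3.86. Put as shares, 31.7% of cells with a Nobox UMI had a Sohlh1 UMI, against 3.34% of cells without one.

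Ratios with Figla cannot be ranked against those of the rarer pairs. Figla was in 59.8% of thinned cells, and a gene found in most cells caps the ratio at a low value. Figla and Nobox were together in 88 cells against 62.2 (ratio 1.42), and Figla and Sohlh1 in 169 against 123 (ratio 1.37). Put as shares, 84.6% of cells with a Nobox UMI had a Figla UMI, against 59.3% of cells without one. For Sohlh1 the shares were 82.0% and 58.9%. Figla and Lhx8 were together in 221 cells against 234, a ratio of 0.94. The 4 pairs with Sohlh2 had ratios between 0.90 and 1.16, so Sohlh2 was spread over cells nearly as its share alone gives. Counting members per cell, 30 cells had 4 of the 5 genes and 4 cells had all 5, where the product of the shares gives 3.52 and 0.039 cells. Without thinning, 67 of 5311 E16.5 cells (median 15233 UMIs) had Figla, Nobox, Lhx8 and Sohlh1 together, against 0 of 4684 at E12.5 and 0 of 8904 at E14.5.

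At E14.5 few cells held the rarer genes, and the ratios were imprecise. Figla and Sohlh2, the pair with many cells, were together in 1138 of 8893 cells against 1271, a ratio of 0.90, and Figla and Sohlh1 in 34 against 50.6, a ratio of 0.67. Nobox and Sohlh1 were together in 2 cells against 0.327, Lhx8 and Sohlh1 in 3 against 1.59, and Nobox and Lhx8 in 0 against 0.316. Over all draws the ratio was 1.31 for Nobox and Sohlh1 and 1.26 for Lhx8 and Sohlh1. Sohlh2 and Sohlh1 each had their own lowest level in the latest group of E14.5 cells, where Figla had its highest. Whether this bears on the ratios was not tested. At E12.5 only the pair of Figla and Sohlh2 had enough cells, with a ratio of 1.05.

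**Figure D3:**
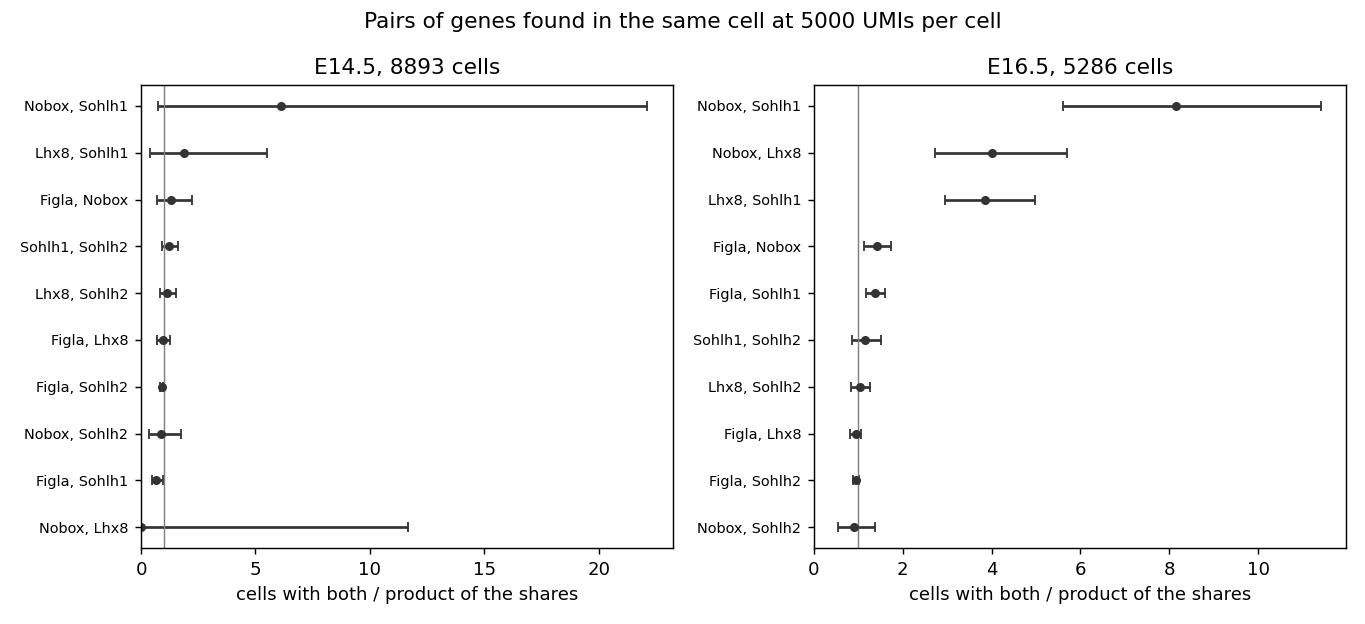
Number of cells with both genes divided by the number given by the product of their shares, for the 10 pairs at E14.5 (left, 8893 cells) and E16.5 (right, 5286 cells), each cell thinned to 5000 UMIs. Bars are 95% binomial intervals of the observed number and the grey line marks 1. At E16.5 the 3 pairs among Nobox, Lhx8 and Sohlh1 lie between 3.86 and 8.14.

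Over E16.5 cells the UMIs of Sohlh1 were the most unevenly spread of the 5 genes. The variance of thinned counts over their mean was 2.97 for Sohlh1, and 22 of 9378 genes had a higher value. It was 1.56 for Figla, 1.34 for Lhx8, 1.31 for Nobox and 1.04 for Sohlh2, against a median of 1.03 over genes. At E14.5 Figla had 1.49 and Sohlh1 1.08.

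**Figure D4:**
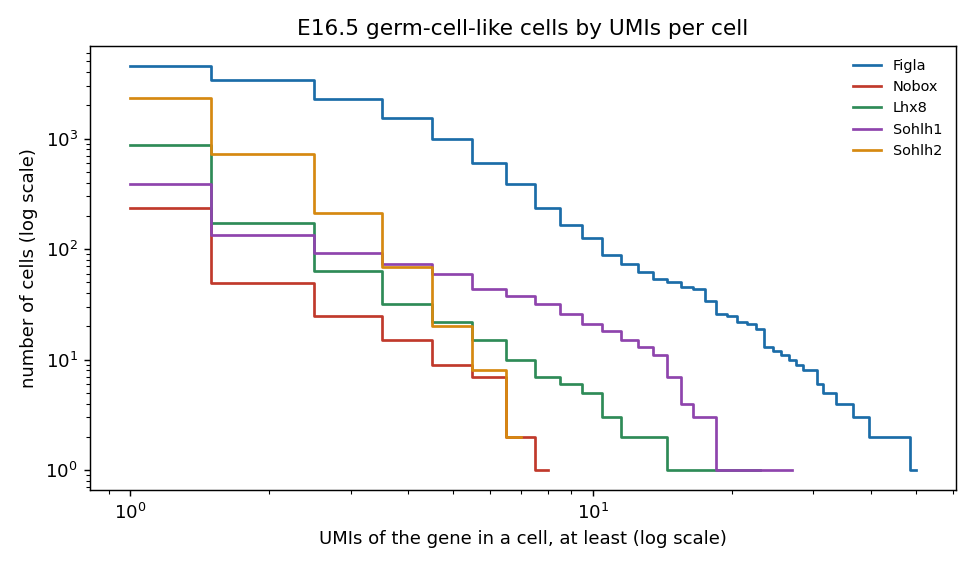
Number of E16.5 germ-cell-like cells (log scale) with at least the number of UMIs on the x axis (log scale), for each gene. Sohlh2 is found in 2350 cells but reaches 7 UMIs at most, while Sohlh1 is found in 388 cells and reaches 27.

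The 5311 E16.5 germ-cell-like cells were then grouped by their Sohlh1 UMIs, a grouping chosen after the values were seen. There were 4923 cells with 0, 255 with 1, 73 with 2 to 4 and 60 with 5 or more, and their median depths were 12504, 14002, 14450 and 15226 UMIs. The last 60 cells, 1.13% of the library, held 544 of 990 Sohlh1 UMIs, and 60 of 60 fell in the cluster with Myom3. Figla was at 197, 232, 524 and 1154 CPM over the 4 groups. Lhx8 was at 13.1, 20.1, 80.6 and 255 CPM, and Nobox at 2.48, 7.88, 28.1 and 137 CPM. Sohlh2 was at 48.7, 57.1, 53.4 and 50.3 CPM. The cells richest in Sohlh1 were thus 5.85-fold (5.49 to 6.23) higher for Figla than cells without a Sohlh1 UMI, 19.4-fold (16.7 to 22.5) for Lhx8 and 55.1-fold for Nobox, while Sohlh2 was at a ratio of 1.03 (0.755 to 1.38).

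At equal depth, 98.3% of the 60 cells had a Figla UMI against 58.7% of cells with 0 Sohlh1 UMIs, 60.0% against 6.22% had a Lhx8 UMI and 40.0% against 1.29% a Nobox UMI. For Sohlh2 the shares were 25.0% and 21.2%. Grouping by Lhx8 is no separate check, since 22 of the 22 cells with 5 or more Lhx8 UMIs also held Sohlh1. They had 1312 CPM of Figla and 141 CPM of Nobox, against 202 and 2.55 CPM in cells with 0 Lhx8 UMIs, and cells with 1 Lhx8 UMI also had 202 CPM of Figla. Among the 60 cells, 1 had over 2 times the library's median UMIs, and 1 other had 267750 CPM of erythroid markers. Without these 2 cells the ratios were 5.75 for Figla, 19.3 for Lhx8, 53.2 for Nobox and 1.05 for Sohlh2. With all 60 cells left out, Nobox and Sohlh1 were together in 9 thinned cells where the product of their shares gives 2.25, and the ratio was 2.75 for Nobox and Lhx8 and 2.30 for Lhx8 and Sohlh1. The 3 pairs thus kept a ratio above 1 outside the cells richest in Sohlh1. The pregranulosa markers summed to 35.0 CPM in the 60 cells and 50.8 CPM in cells with 0 Sohlh1 UMIs, and Y-linked genes to 0 in both. Other marker lists were higher in the 60 cells, with 10.9 against 1.93 CPM for the fetal male germ line, 12.0 against 3.67 CPM for interstitial cells (2 of 8 markers measured) and 33.9 against 14.4 CPM for endothelial cells (4 of 6 measured). Germ cell markers summed to 8932 against 10328 CPM. The part of these lists in the result was not tested.

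**Figure D5:**
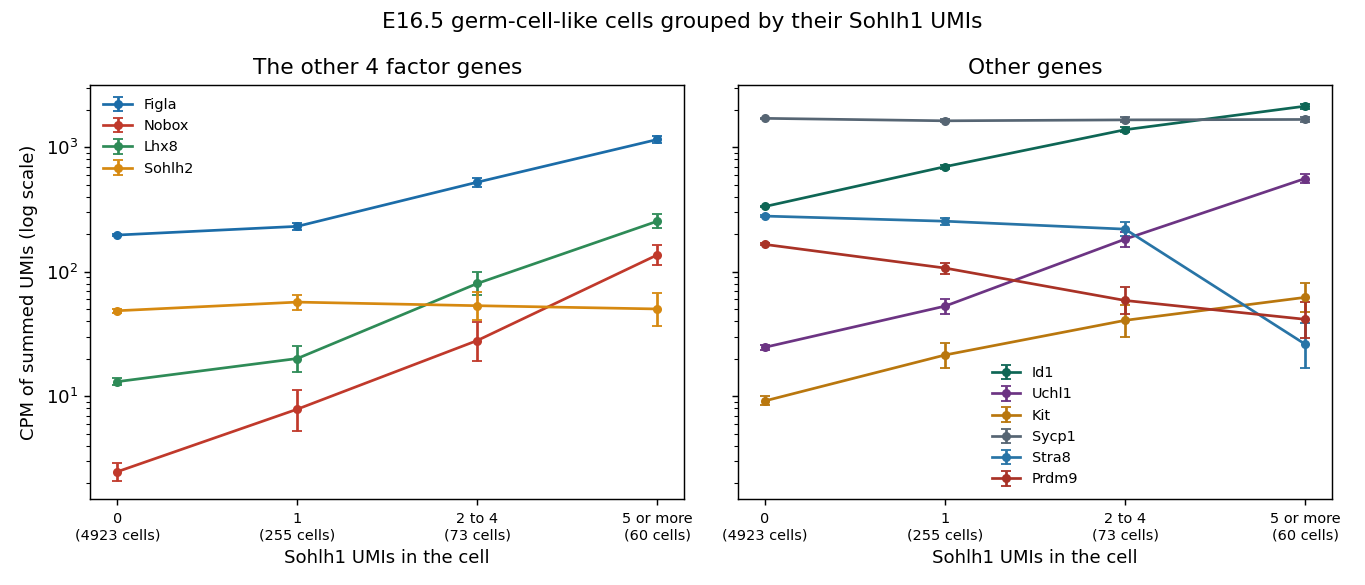
CPM of summed UMIs (log scale, 95% Poisson intervals) in E16.5 germ-cell-like cells grouped by Sohlh1 UMIs, for the other 4 factor genes (left) and 6 other genes (right). Figla goes from 197 to 1154 CPM and Lhx8 from 13.1 to 255 CPM across the groups, Sohlh2 stays between 48.7 and 57.1 CPM, and Stra8 is lowest in the last group with 26.2 CPM.

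Other genes set the 60 cells apart in both directions. Among 7237 genes that reached 10 CPM in this library, 7.97% were at least 2-fold higher in them than in cells with 0 Sohlh1 UMIs and 6.73% at least 2-fold lower. The level of 10 CPM was taken over all germ-cell-like cells of the library, the 60 included. Hes1, Ckb, Anxa7 and Kit were under 10 CPM in cells with 0 Sohlh1 UMIs. They passed only through cells with Sohlh1, so their place in the ranking rests partly on that filter. The largest ratios were those of Hes1, a transcriptional repressor gene that Notch signalling induces, at 28.7-fold (279 against 9.70 CPM), Uchl1, a deubiquitinase abundant in early oocytes and neurons, at 22.6-fold (561 against 24.8 CPM), and the creatine kinase gene Ckb at 20.2-fold (149 against 7.35 CPM). Lhx8 came next, followed by Dlk1 at 11.2-fold, Anxa7 at 10.9-fold and the LIM protein gene Ajuba at 9.64-fold. Of the inhibitors of helix-loop-helix factors, Id1 was 6.39-fold, Id2 8.50-fold and Id3 4.48-fold higher, which is 3 of 3 genes of that list at this level. Of 13 later oocyte genes in the table, 4 reached 10 CPM. Of those 4, 3 were higher: Uchl1, Kit, the receptor of the growing oocyte, at 6.77-fold and Tle6, of the subcortical maternal complex, at 7.66-fold. Kit, at 9.20 CPM in cells with 0 Sohlh1 UMIs, passed the filter only through cells with Sohlh1, so the count of 3 rests partly on that filter. All 3 were also higher over the E12.5 library than over the E16.5 library, Tle6 with 18.3 against 13.6 CPM, so they do not mark later cells alone. Genes under 10 CPM went both ways, with Gdf9 at 0.41 and Npm2 at 0.67, from 1 and 2 UMIs, and Ooep at 3.84 from 15 UMIs. Pou5f1, which is in both the later oocyte list and the early list, had a ratio of 1.13 (0.678 to 1.77). Of 5 early germ cell genes at this level, 2 were higher, Dppa3 at 3.47-fold (2.88 to 4.13) and Dppa4 at 3.62-fold (2.52 to 5.07), and Utf1 was 5.07-fold (1.40 to 41.9) lower from 2 UMIs. The whole early list summed to 324 against 209 CPM.

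Some meiotic genes were lower there. Stra8, the retinoic acid target that starts the meiotic programme, was at 26.2 CPM against 280.07, which is 10.7-fold (7.17 to 16.7) lower, and the recombination gene Prdm9 was at 41.5 against 166 CPM. Of 18 meiotic prophase genes at that level, 6 were at least 2-fold lower and 0 higher, with a median log2 ratio of -0.61 against 0.08 over all genes. Mlh3, a mismatch repair gene that acts at crossovers, went the other way with a ratio of 1.89 (1.23 to 2.79). Of the synaptonemal complex genes, Sycp1 and Sycp3 were about level, with ratios of 0.98 and 1.09. Tex12 at 0.40, Syce2 at 0.59, Sycp2 at 0.65 and Syce3 at 0.76 were lower. The germ cell genes Dazl at 0.92 (0.854 to 0.984) and Ddx4 at 1.03 were about level. Syce1 at 0.87 (0.762 to 0.991) had an interval that overlapped that of Dazl. Sycp1, Sycp3, Dazl and Ddx4 were thus about as abundant in the Sohlh1-rich cells as in cells with 0 Sohlh1 UMIs, unlike Tex12, Syce2, Sycp2 and Syce3.

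Partners, inhibitors and later oocyte genes were followed by stage from lists chosen by their known roles. Of the E proteins and LIM cofactors, 7 of 8 were in the table. At E14.5 over E12.5, 1 was at least 2-fold higher and 2 lower (median log2 ratio -0.07), where 31.1% of all genes were higher and 16.3% lower (median 0.30). At E16.5 over E14.5, 0 were higher and 3 lower (median -0.53), where 16.3% of all genes were higher and 17.4% lower (median 0.06). Tcf3, which encodes the E protein that pairs with Figla protein, was at 145, 122 and 60.01 CPM at the 3 stages, while Tcf12, another E protein gene, was at 26.8, 75.5 and 83.8 CPM. Ssbp3 was at 56.6, 105 and 72.9 CPM, and Ssbp4, the gene with the largest difference, went from 153 to 26.3 and 4.89 CPM. Tcf3 was the higher of these E protein genes at E12.5 and E14.5, and Tcf12 at E16.5.

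Of the inhibitors, 7 of 7 were in the table. At E14.5 over E12.5, 3 were higher and 0 lower (median -0.04), against 31.1% and 16.3% of all genes. At E16.5 over E14.5, 0 were higher and 4 lower (median -1.38), against 16.3% and 17.4%. Id1 was at 124, 269 and 395 CPM, and Id3 at 594, 572 and 219 CPM. Id2 was at 77.2, 64.3 and 34.3 CPM. Lmo4, which encodes a LIM-only protein, had the largest ratio between neighbouring stages, with 5.37, 30.9 and 7.31 CPM. The library as a whole thus had less Id2 and Id3 at E16.5, although the Sohlh1-rich cells of that library had more than its other cells.

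Other factors that have been used with these genes to induce oocyte growth were at least 2-fold higher for 2 of 5 at E14.5 over E12.5 (median 0.25), which is near the 31.1% of all genes, and 0 of 5 at E16.5 over E14.5 (median 0.61), against 16.3%. In both comparisons 0 were lower, against 16.3% and 17.4% of all genes. Taf4b, a subunit of the general transcription machinery needed for oocyte number, was at 20.5, 62.4 and 106 CPM, and Stat3 at 4.47, 19.8 and 33.1 CPM. Sub1, a coactivator gene, and Dynll1, a dynein light chain gene, were each above 1000 CPM at all 3 stages. Foxo3, which holds oocytes dormant, was at 19.6, 23.3 and 32.6 CPM. Of 29 later oocyte genes, 13 were in the table. Among these is Pou5f1, which is also in the early germ cell list and is the gene of the sort reporter. The counts of this list thus do not stand for late genes alone. At E14.5 over E12.5, 3 were higher and 8 lower (median -1.16), against 31.1% and 16.3% of all genes. At E16.5 over E14.5, 5 were higher and 6 lower (median -0.93), against 16.3% and 17.4%. Pou5f1 was at 681, 162 and 18.9 CPM, Kit at 47.2, 21.1 and 11.1 CPM, and Uchl1 at 64.3, 59.4 and 35.9 CPM. Ooep, a gene of the subcortical maternal complex, was at 43.3, 11.7 and 4.94 CPM. Gdf9, an oocyte growth factor, was at 0.128, 0.517 and 2.74 CPM, and the zona pellucida gene Zp3, a known Figla target, at 0.91, 0.341 and 0.13 CPM. Zp3 was thus lowest in the library with most Figla, from 114, 35 and 9 UMIs.

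The genes nearest to each member in stage profile were named by Euclidean distance of centred log2 CPM over the 3 stages, which is a likeness over 3 points and no more. For Figla they were Tsc22d3 (1.21, 126 and 278 CPM), Podxl2, Fam90a1b, Tex101 and Strip2. For Sohlh1 they were Spo11 (2.31, 33.3 and 177 CPM), Lpxn, Cdkl2, Tktl1 and Lca5l. For Lhx8 they were Fbxo43, Zmynd12, Ankrd42, Lrrc48 and Cd27, and for Nobox Klhdc8b, Abcb1a, Fam161b, Fras1 and Nptx2. For Sohlh2 they included Ykt6, Zc3hav1l, Usp2 and Phf10.

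Over thinned cells of 1 library, which share that library and its depth, the correlations with Figla at E14.5 (8893 cells) were highest for Sycp3 at 0.42, Pigp, Smc1b, H2-D1 and H2-K1. At E16.5 (5286 cells) the highest for Figla was Syce2 at 0.17, followed by Nmt2, Tpgs2, Sod2 and Inca1. For Lhx8 at E16.5 they were Hes1 at 0.19, Id1 at 0.19, Uchl1 at 0.18, Id3 and Ajuba. For Sohlh2 no correlation passed 0.12 in any library. Among the members at E16.5, the correlation was 0.31 for Nobox and Sohlh1, 0.28 for Lhx8 and Sohlh1, and 0.24 for Figla and Sohlh1.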

How the data were processed

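RNA was measured in 3 libraries of sorted mouse germ cells. FastQC, the mm10 build and Cell Ranger 2.0.0 are named in the submitters' processing notes, without settings or filters. For 14133 genes in 19144 cells, the authors deposited natural log values, ln(1 + UMIs x 10000 / total). Undoing the log gave whole UMI counts for 100.0% of 68606039 non-zero values within 0.01. Filters of 500 genes, 1000 UMIs and 10% mitochondrial UMIs took out 0 cells. Scrublet (scanpy 1.11.5) marked 38 cells, which were left out; a caller that failed and doublets taken out before deposit cannot be told apart. Clustering used 2000 variable genes, 30 components, 15 neighbours and Leiden resolution 0.5, and clusters were named from marker lists.

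UMIs were summed per library over germ-cell-like cells. CPM have exact 95% Poisson intervals, shares exact (Clopper-Pearson) binomial intervals and ratios exact conditional intervals. A UMI count of 0 was given a limit of 3 counts. Thinning drew 5000 UMIs per cell without replacement. Co-detection needed 10 cells with each gene. Genes were called at 2-fold over all 14133 genes, and no test was possible with 1 library per stage. Alternatives were other thinning depths, scalings, cell sets, score lists and minimum counts. The 5 genes, the lists and the rules were chosen with earlier results of these data known. Besides the 5 genes, the text names in each list the genes of highest level and largest ratio of at least 10 CPM, the 5 nearest in profile and the 5 of highest correlation where the gene was in 5% of cells (1 gene near Sohlh2 in profile is not reported here); genes of the Sohlh1 groups, and a few list genes with known roles, were named after their values were seen. The co-detection script was checked on simulated data.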

Additional observations from a re-analysis of the deposited data

How the results depend on the processing

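No paired analysis was possible because each stage is 1 library and the labels carry no replicate numbers. Other cell sets, scalings and thinned counts gave the same numbers of genes past 2-fold; the mean over cells of CPM gave 4 in place of 3 for E14.5 over E12.5, where Nobox is near the threshold. Over 120 alternative values of the 15 ratios between stages, all kept their sign except 3, which were Sohlh2 at E16.5 over E12.5, at -0.32 with median-of-ratios scaling, -0.27 with TMM scaling and -0.02 as a difference of mean natural log values, against 0.06. Keeping the sign is a loose criterion. Over results of every kind not set as headline results, 122 alternatives were marked as moved from the main value and 222 as the same. Among headline results it was 1 and 110. The lowest and highest log2 ratio of Figla were 6.27 and 6.73 for E14.5 over E12.5, and of Nobox 0.49 and 1.01. At E14.5, 5 of 10 pairs were found together in more cells than the product of their shares, and 3 at 3000 UMIs per cell; the cause was not tested. In an alternative chosen after seeing the data, leaving out the 60 E16.5 cells with 5 or more Sohlh1 UMIs, Nobox and Sohlh1 were together in 9 cells against 2.25 (ratio 8.14 with the 60 cells), and the ratio was 2.75 for Nobox and Lhx8 (4.02) and 2.30 for Lhx8 and Sohlh1 (3.86). Depth limits Nobox, with 32 UMIs at E12.5 and 51 at E14.5, and pairs of rare genes at E14.5.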
